A study of Mus musculus with 6 samples.

Results

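The genes described here carry the signal of the high-affinity IgE receptor from the membrane to store-operated calcium entry and NFAT in mast cells. The module was set as a list of 46 genes by symbol: kinases, adaptors, exchange factors, phosphatases, PI3K subunits, phospholipase C, calcium entry genes and NFAT factors. All 46 were found by gene ID among the 47643 genes of the deposited count table, and all 46 passed the filter on low counts that left 15111 genes for testing.

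The study sequenced poly(A) RNA of sorted skin mast cells in 6 libraries. Every mouse carried Cdh5CreERT2, a Cre recombinase active only after tamoxifen and driven by an endothelial gene, and was given 4OHT at embryonic day 7.5. The 3 embryonic libraries came from E16.5 skin, were sorted as CD45+ F4/80- CD64- ckit+ ST2+, and are described as derived from YS HE, HE being hemogenic endothelium per the series' title. The 3 adult libraries were sorted as CD45+ F4/80- CD64- ckit+ Fcer1+ and are called definitive in the series' design. Per the labels, adult skin alone went through a further Dispase step to take off the epidermis, so age, described origin, gate and digestion cannot be told apart. Nothing in the labels says that replicates are separate animals or that the sort used the lineage label; p-values therefore reflect library-to-library spread, possibly a technical one. The adult gate selected on the receptor whose signalling is described here.

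When antigen crosslinks IgE on its receptor, the SRC family kinase Lyn phosphorylates the receptor's beta and gamma chains and Syk docks on the gamma chain. Syk and Btk then build a complex on the adaptors LAT and SLP-76 in which phospholipase C gamma is activated. Its product IP3 opens calcium channels of the endoplasmic reticulum, STIM proteins sense the emptied store and open ORAI channels of the cell surface, and the calcium that enters acts through calcineurin on NFAT. A second arm through Fyn and Gab2 feeds PI3K, and the phosphatases SHIP-1 and SHP-1, CBL ubiquitin ligases and DOK proteins oppose the signal.

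Libraries held 34122162 to 49813523 counts in genes, and 3 counts in a library corresponded to 0.0603 to 0.0850 CPM (gene counts scaled to a common library size with edgeR's TMM factors). Of the 10 mast cell markers, 10 averaged at least 1 CPM in each group, with sums of 125405 to 136995 CPM in the embryonic and 61808 to 64498 CPM in the adult set. These markers did not share a direction. Cpa3 (38759 against 12887 CPM), Hdc, Tpsb2, Cma1, Gata2 and Srgn were higher in embryonic cells. Mcpt4 (1119 against 7714 CPM) and Slc18a2 (723 against 1609 CPM) were higher in adult cells. Kit (4968 against 5392 CPM) and Mitf (121 against 113 CPM) were nearly level. Other cells' markers were also present. The 5 basophil markers, of a cell that uses the same IgE receptor, summed to 1055 to 1081 CPM against 1797 to 1929 CPM. Within that list Itga2b and Cd69 were higher in adult cells, while the basophil proteases Mcpt8 (25.2 against 6.82 CPM) and Prss34 (345 against 0.976 CPM) were higher in embryonic cells. Fibroblast markers summed to 552 to 683 CPM in the embryonic and 91.4 to 504 CPM in the adult set. Keratinocyte markers summed to 55.6 to 523 CPM, with the highest sum in embryonic replicate 3, against 29.1 to 53.3 CPM. The 10 macrophage markers summed to 18.2 to 47.6 against 164 to 248 CPM. Most of the adult sum came from Lyz2 (0.473 against 124 CPM) and Cd68 (21.7 against 73.8 CPM), while Csf1r was nearly level (3.77 against 3.97 CPM). The part of these other cells in the results was not tested. In bulk libraries, fewer cells of a type and less RNA per cell cannot be told apart.

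Between E16.5 and adult mast cells of the skin, the signalling genes differed in both directions. All 6 kinases of the SRC, SYK and TEC families on the list were higher in adult cells, as were the adaptors Lat and Lat2, the calcium sensors Stim1 and Stim2, and Nfatc1. Lcp2, Gab2, Dok1, Dok2, the IP3 receptor genes Itpr1 and Itpr3, Nfatc2 and Nfatc3 were higher in embryonic cells. In edgeR's quasi-likelihood fit across all genes, 21 of 46 were higher in adult cells and 14 in embryonic cells at a Benjamini-Hochberg adjusted p under 0.05, and 11 did not pass. The 35 that passed are 76.1% of the list, against 63.0% of all tested genes (31.7% higher in adult and 31.2% higher in embryonic cells). At least 2-fold differences were found for 16 members, 9 higher in adult and 7 in embryonic cells, which is 34.8% against 38.0% of all tested genes, so large differences were about as frequent as elsewhere. No overlap between embryonic and adult libraries was seen for 38 members (82.6%), against 70.0% of all tested genes. The median log2 fold change (embryonic over adult) was -0.29 for the members and -0.02 for all tested genes.

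**Figure D1:**
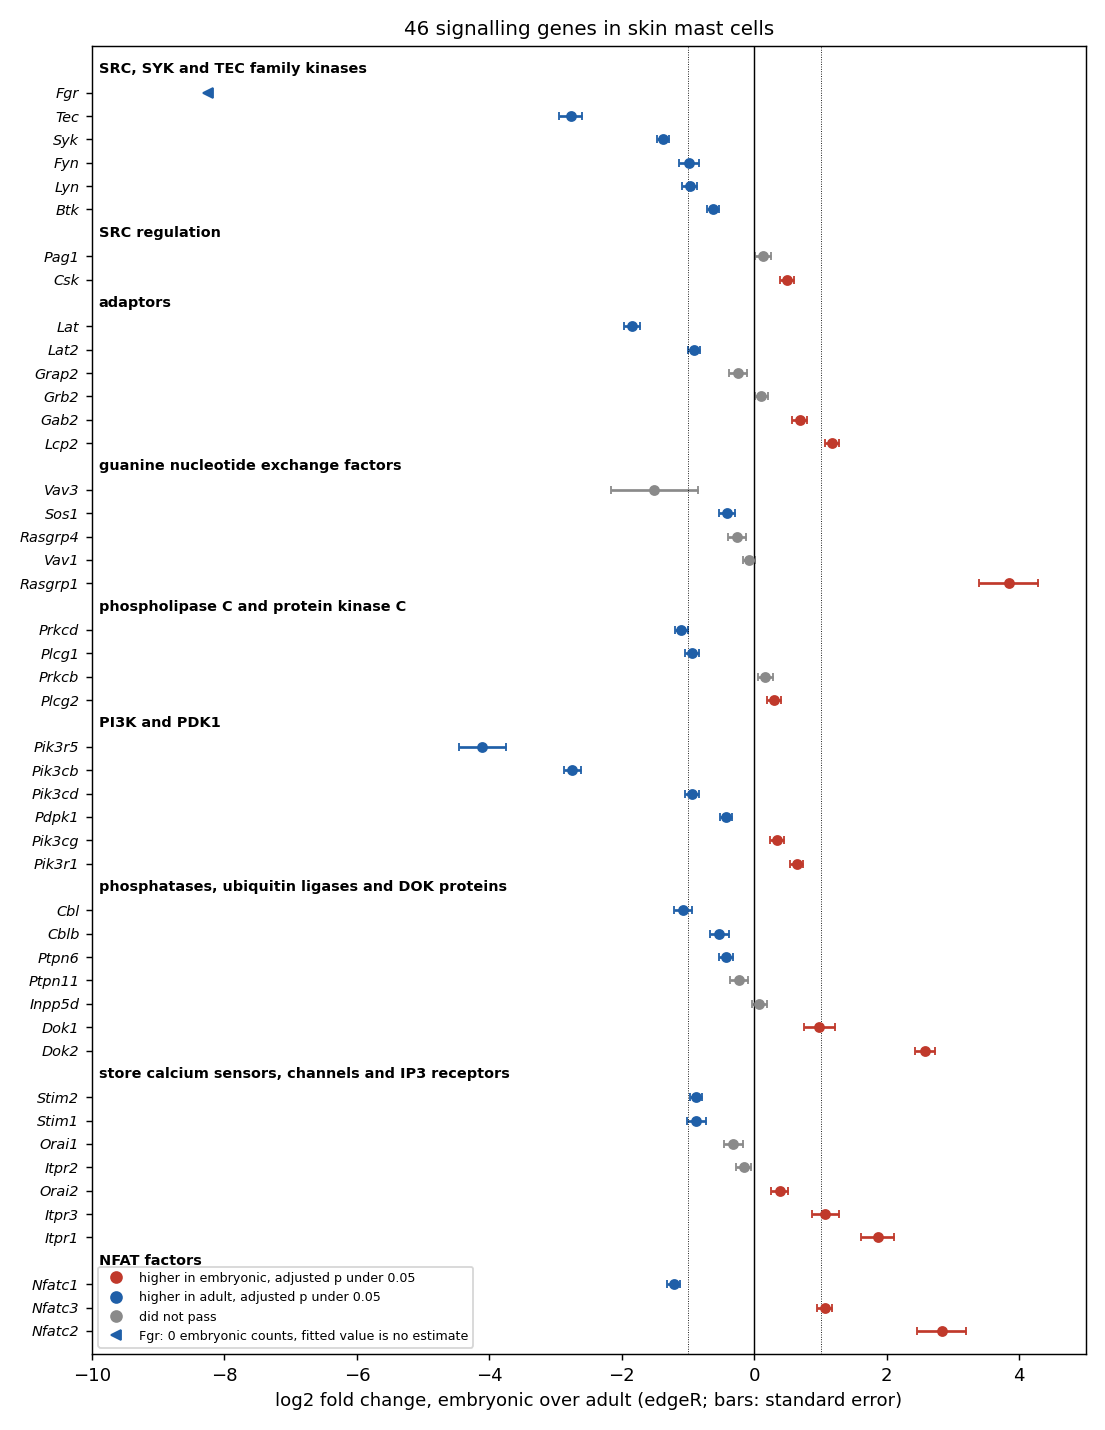
Fitted log2 fold change of each of the 46 genes (x axis, embryonic over adult, bars for the standard error; dotted lines mark 2-fold), grouped by role, with genes higher in embryonic cells in red, higher in adult cells in blue and not passing in grey. The 6 kinases lie left of 0, and Nfatc1 lies left of 0 while Nfatc2 and Nfatc3 lie right of it; Fgr (triangle) had 0 embryonic counts.

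Upstream sequences are shown for 3 members, picked after their values were seen: the adaptors Lat and Lcp2, which work in the same complex and differed in opposite directions, and Nfatc2, the NFAT gene with the largest fold. Each line gives the 250 bases before the RefSeq start (GRCm38.p6), read 5′ to 3′ along the gene's strand. Capitals mark matches on either strand to 3 motifs. GATA family factors bind AGATAA. The core of NFAT sites is GGAAA. The E-box marked is CACGTG.
Lat, chr7:126369569-126369818, minus strand: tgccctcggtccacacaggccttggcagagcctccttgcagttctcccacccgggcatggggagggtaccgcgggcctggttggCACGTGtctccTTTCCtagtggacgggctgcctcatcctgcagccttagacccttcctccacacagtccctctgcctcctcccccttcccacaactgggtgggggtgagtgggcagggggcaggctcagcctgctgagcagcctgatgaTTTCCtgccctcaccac
Lcp2, chr11:34046678-34046927, plus strand: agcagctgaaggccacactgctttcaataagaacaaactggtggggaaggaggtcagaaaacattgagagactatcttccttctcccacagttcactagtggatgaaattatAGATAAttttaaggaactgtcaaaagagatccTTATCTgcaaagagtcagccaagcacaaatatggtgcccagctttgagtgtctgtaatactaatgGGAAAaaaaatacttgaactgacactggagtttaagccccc
Nfatc2, chr2:168601658-168601907, minus strand: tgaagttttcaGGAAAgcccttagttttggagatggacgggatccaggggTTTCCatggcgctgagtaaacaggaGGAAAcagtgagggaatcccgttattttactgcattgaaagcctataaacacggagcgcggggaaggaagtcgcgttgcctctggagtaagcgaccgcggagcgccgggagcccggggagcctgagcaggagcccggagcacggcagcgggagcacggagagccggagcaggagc
The promoter table held 37 of the 46 members with 50 starts, and Nfatc2 has 2 starts there, of which the more upstream is shown. AGATAA was found before 2 of the 50 starts (4%), those of Lcp2 and Plcg2, against 9.99% of all 32851 promoters. GGAAA was found before 25 of 50 (50%, against 55.6%), CACGTG before 6 (12%, against 6.02%), CATGTG, another E-box, before 5 (10%, against 12.3%), and TGACGTCA, the CRE, before 1 (2%, against 1.55%). These matches describe letters in the window and show no binding.

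The 6 kinases of the SRC, SYK and TEC families all differed in the same direction. Syk (ENSMUSG00000021457.14, chromosome 13, 52583173 to 52648792 in GRCm38) was at 104, 105 and 104 CPM in the embryonic and at 274, 253 and 287 CPM in the adult set, 2.60-fold higher in adult cells (adjusted p = 1.1e-06). The embryonic libraries were nearly equal and lay below every adult library. Tec, a TEC family kinase related to Btk (chromosome 5, 72755716 to 72868483), was at 11.2, 18.2 and 15 CPM against 99.0, 111 and 91.9 CPM, 6.83-fold higher in adult cells (adjusted p = 1.1e-06). It was a minor transcript beside Btk in embryonic libraries, taking 4.93%, 7.71% and 6.40% of the pair's summed level per exon length, and 23.4%, 24.6% and 21.4% in adult libraries. Btk itself rose less, from 182, 183 and 184 CPM in embryonic to 273, 288 and 284 CPM in adult libraries (1.54-fold, adjusted p = 0.00015).

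Lyn and Fyn, the SRC family kinases that open the 2 arms of the signal, were higher in adult cells by nearly the same factor. Lyn was at 205, 167 and 168 CPM in the embryonic and at 326, 378 and 356 CPM in the adult set (1.96-fold, adjusted p = 4.6e-05). Fyn was at 258, 328 and 217 CPM against 525, 569 and 499 CPM (1.98-fold, adjusted p = 0.00024). Neither gene's groups overlapped, and their shares did: Lyn took 42.2% ± 5.95 (SD, n = 3) of the summed level of Lyn, Fyn and Fgr in embryonic and 41.6% ± 1.69 in adult libraries, per exon length. Fgr, a SRC family kinase of myeloid cells, had 0 counts in the 3 embryonic libraries and 76, 32 and 13 counts in the adult ones. Against a floor of 3 counts over the embryonic group it was at least 39.9-fold higher in adult cells, and at least 23.9-fold without adult replicate 1. With a highest adult level of 1.53 CPM it remained rare. The macrophage marker sum, mostly Lyz2 and Cd68, was also higher in adult libraries (values above).

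Csk, the kinase that switches SRC family kinases off, went the other way from them. It was at 74.4, 61.1 and 62.2 CPM in the embryonic and at 46.4, 46.6 and 47.9 CPM in the adult set (1.40-fold higher in embryonic cells, adjusted p = 0.0027). Pag1, the membrane adaptor that recruits Csk, averaged 30.5 ± 3.61 and 27.8 ± 1.35 CPM (SD, n = 3 libraries) with overlapping groups and did not pass edgeR's test (adjusted p = 0.35).

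**Figure D2:**
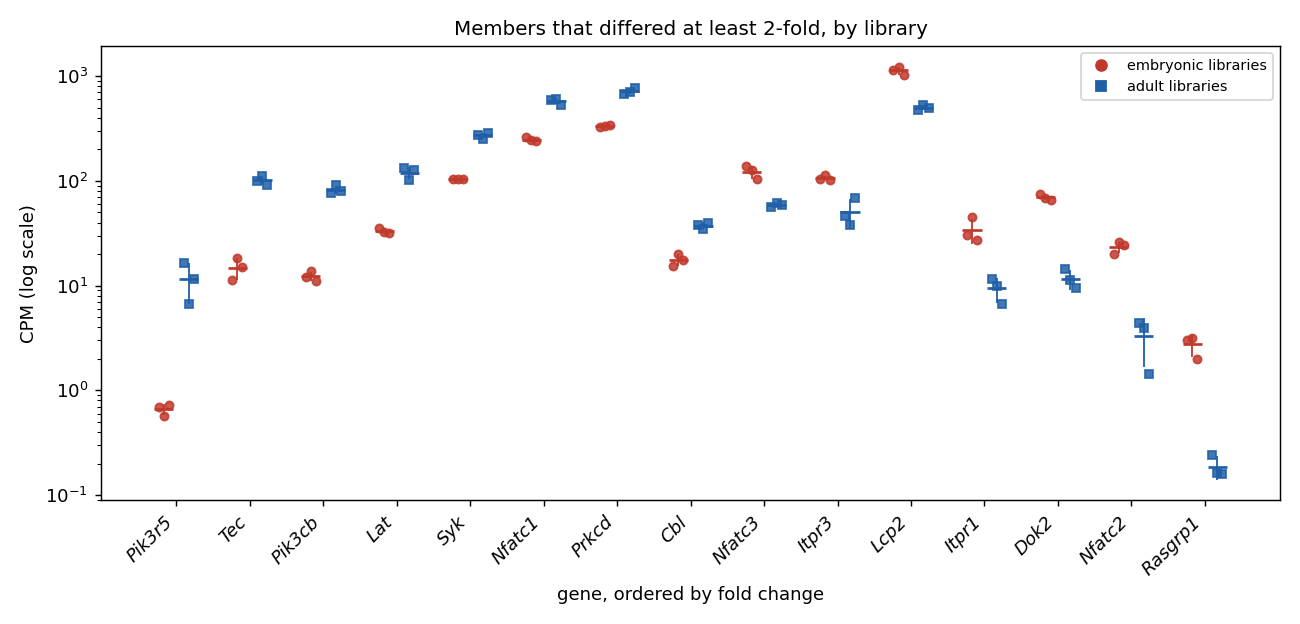
CPM on a log axis by library, embryonic as 3 red circles and adult as 3 blue squares, for 15 of the 16 members that differed at least 2-fold, with lines for the mean and SD; Fgr is left out because of its 0 counts. No gene's groups overlap, Pik3r5 shows the widest gap toward adult cells (6.69 to 16.3 against 0.567 to 0.730 CPM), and Rasgrp1 the widest toward embryonic cells at low levels.

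Among the adaptors, the membrane scaffolds and the cytosolic adaptor SLP-76 differed in opposite directions. Lat, the scaffold that gathers phospholipase C and SLP-76 (ENSMUSG00000030742.7, chromosome 7, 126363824 to 126369570), was at 35.7, 32.5 and 31.5 CPM in the embryonic and at 132, 103 and 126 CPM in the adult set, 3.61-fold higher in adult cells (adjusted p = 8.9e-07). Lat2, the related scaffold NTAL, was at 324, 326 and 335 CPM against 663, 586 and 607 CPM (1.88-fold, adjusted p = 2.0e-05). Lat2 was the more abundant of the pair in every library, and Lat took 8.17% to 9.46% of their summed level per exon length in embryonic and 14.2% to 16.4% in adult libraries. Of the exon bases of Lat2, 36.3% are shared with Rfc2, and reads there were not counted, so its level is understated. Lcp2, which encodes SLP-76 (chromosome 11, 34046920 to 34092295), was at 1134, 1232 and 1029 CPM in the embryonic and at 471, 532 and 499 CPM in the adult set, 2.26-fold higher in embryonic cells (adjusted p = 8.2e-06). Per kilobase of exon it was the highest of the 46 genes in embryonic cells (254 CPM per kilobase) and the sixth in adult cells (112), where Lat2 was the highest (236).

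Gab2, the scaffold of the Fyn and PI3K arm, was also higher in embryonic cells, at 173, 216 and 208 CPM against 121, 116 and 134 CPM (1.61-fold, adjusted p = 0.00046). Grb2, the adaptor that brings SOS to phosphorylated scaffolds, overlapped between groups at 259 ± 18.1 and 241 ± 17.4 CPM and did not pass (adjusted p = 0.39). Grap2, which encodes GADS, the link between LAT and SLP-76, was at 17.6 ± 2.01 and 20.8 ± 1.68 CPM (adjusted p = 0.14). The 2 adaptors that connect the scaffolds to their partners thus showed no difference beyond the spread, with log2 fold changes of 0.10 ± 0.10 SE for Grb2 and -0.24 ± 0.14 SE for Grap2.

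Of the 5 exchange factors, Rasgrp1 had the largest fold and a low level. This Ras activator that responds to diacylglycerol was at 3.05, 3.17 and 2 CPM in the embryonic and at 0.241, 0.162 and 0.158 CPM in the adult set, 14.3-fold higher in embryonic cells (adjusted p = 4.0e-05). Rasgrp4, the family member known from mast cells, was the main one in both groups, with 87.2% to 93.2% of the pair's level per exon length in embryonic and 99.2% to 99.5% in adult libraries. Rasgrp4 itself averaged 28.1 ± 3.97 and 33.5 ± 3.31 CPM and did not pass (adjusted p = 0.13), and 18.2% of its exon bases are shared with other genes. Sos1, a Ras exchange factor recruited by Grb2, was 1.33-fold higher in adult cells, with 41.4, 36.1 and 35.6 against 30.1, 29.4 and 25.4 CPM (adjusted p = 0.011), and without embryonic replicate 3 it no longer passed (adjusted p = 0.082).

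Vav1, a Rac exchange factor bound by SLP-76, was nearly level at 208 ± 7.10 and 220 ± 4.83 CPM (log2 fold change -0.08 ± 0.09 SE, adjusted p = 0.44). Vav3, a rare relative, was at 0.150, 0.680 and 1.25 CPM in the embryonic and at 2.39, 2.40 and 1.16 CPM in the adult set and did not pass (adjusted p = 0.070). Its groups overlapped through embryonic replicate 3 and adult replicate 3. The fitted adult excess of Vav3 was 2.85-fold with all libraries, 4.78-fold without embryonic replicate 3 (adjusted p = 0.014) and 5.93-fold without either replicate 3.

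Phospholipase C gamma was made up differently in the groups. Plcg1 (chromosome 2, 160731300 to 160775760) was at 188, 206 and 178 CPM in the embryonic and at 348, 345 and 401 CPM in the adult set, 1.91-fold higher in adult cells (adjusted p = 3.6e-05). Plcg2, the isoform typical of blood cells, was at 169, 170 and 137 CPM against 124, 136 and 129 CPM, 1.23-fold higher in embryonic cells (adjusted p = 0.039), a call lost in 6 of 15 other settings. Per exon length, Plcg2 held 58.5% to 62.2% of the pair in embryonic libraries and Plcg1 held 58.2% to 63.0% in adult libraries, so the leading isoform differed on that scale. By plain counts Plcg1 led in every library, with 52.7% to 56.5% of the pair in embryonic and 71.8% to 75.7% in adult libraries. Among protein kinase C genes, Prkcd, a diacylglycerol-responsive isoform, was at 325, 332 and 340 CPM against 675, 703 and 763 CPM, 2.15-fold higher in adult cells (adjusted p = 5.7e-06). Prkcb, a calcium-dependent isoform, averaged 1155 ± 119 against 1027 ± 46.5 CPM without passing the test (adjusted p = 0.20). Prkcb took 66.3% to 71.2% of their summed level per exon length in embryonic and 45.8% to 50% in adult libraries. By plain counts Prkcb led in every library, with 75.1% to 79.2% in embryonic and 56.5% to 60.6% in adult libraries.

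The PI3K subunits shifted in the same manner, with the largest changes in subunits that were rare in embryonic cells. Pik3cb, the beta catalytic subunit (chromosome 9, 99036654 to 99140621), was at 12.2, 13.7 and 11 CPM in the embryonic and at 76.9, 91.1 and 79.5 CPM in the adult set, 6.72-fold higher in adult cells (adjusted p = 9.4e-08). Pik3cd, the delta subunit, which mast cells use downstream of the IgE receptor and Kit, was 1.93-fold higher in adult cells, with 234, 258 and 265 against 142, 132 and 118 CPM (adjusted p = 3.1e-05). Pik3cg, the gamma subunit that answers G protein-coupled receptors, was 1.27-fold higher in embryonic cells, with 381, 366 and 344 against 252, 313 and 296 CPM (adjusted p = 0.019), and did not pass without adult replicate 1 (adjusted p = 0.080). Pik3cg held 69.7% to 71.3% of the level of the 3 catalytic genes in embryonic and 43.5% to 46.2% in adult libraries, where Pik3cd held 41.2% to 43.9% and Pik3cb 11.4% to 12.7%.

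The regulatory subunits differed in opposite directions. Pik3r5, which encodes p101, a regulatory partner of the gamma subunit (chromosome 11, 68432121 to 68497849), was at 0.687, 0.567 and 0.730 CPM in the embryonic and at 16.3, 6.69 and 11.4 CPM in the adult set, 17.2-fold higher in adult cells (adjusted p = 6.8e-06). Its adult libraries varied by more than 2-fold among themselves, and the lowest was still above every embryonic library. Pik3r1, which encodes p85 alpha, the partner of the beta and delta subunits, was 1.56-fold higher in embryonic cells, with 124, 114 and 109 against 68.3, 76.1 and 77.6 CPM (adjusted p = 0.00030). Pdpk1, the kinase that activates AKT once PI3K has made its lipid, was 1.34-fold higher in adult cells, with 124, 131 and 130 against 93.5, 101 and 92.6 CPM (adjusted p = 0.0022).

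**Figure D3:**
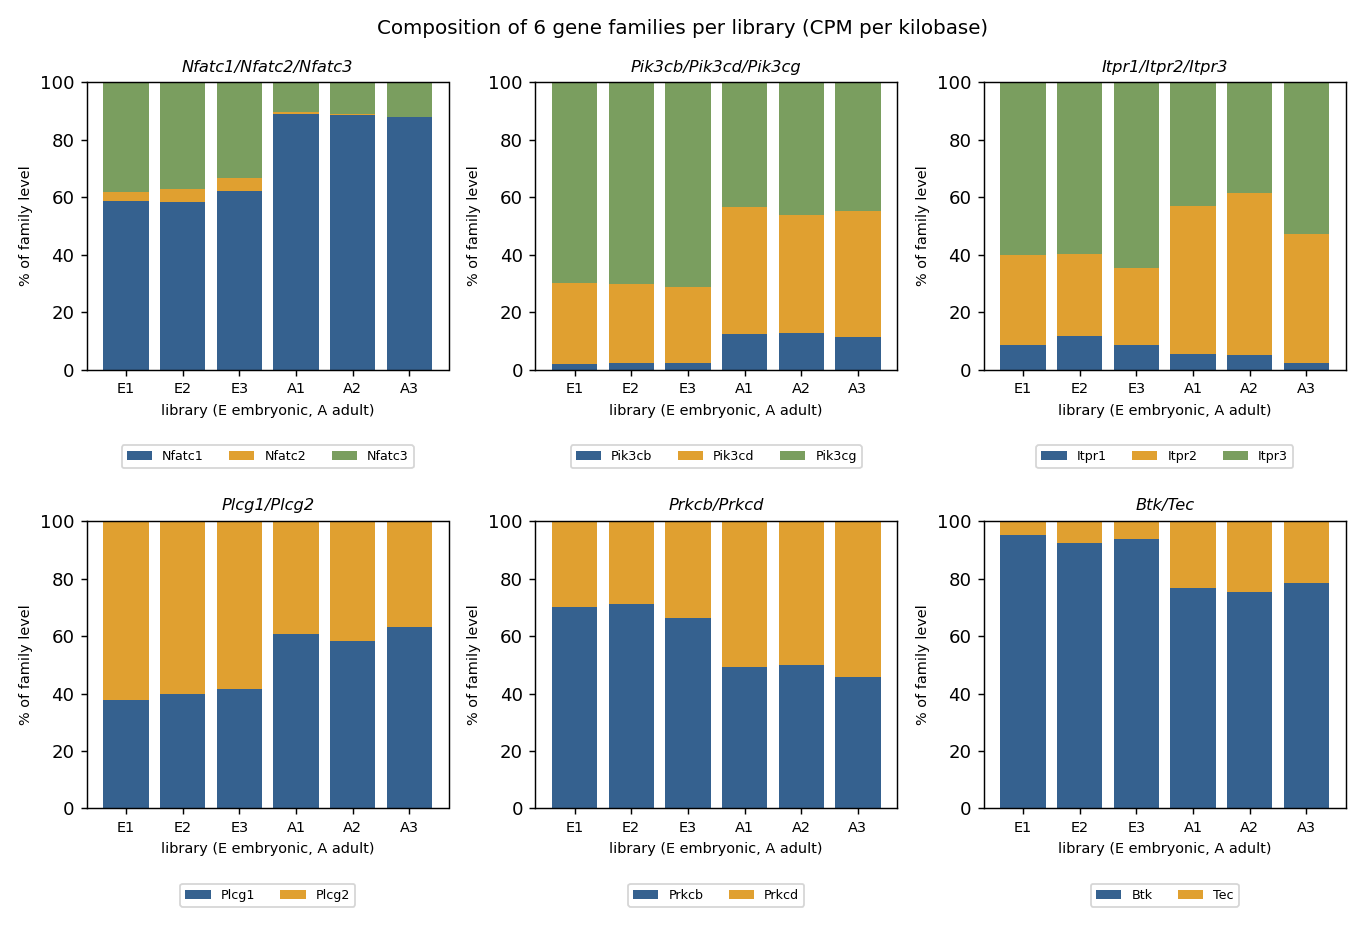
Share of each gene in the summed level of its family (CPM per kilobase of exon, %), in each embryonic (E1 to E3) and adult (A1 to A3) library, for 6 families. In the adult bars the shares of Nfatc1, Plcg1, Prkcd, Tec, Pik3cb, Pik3cd and Itpr2 are larger than in every embryonic bar.

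The brakes on the pathway were split. Inpp5d, which encodes SHIP-1, the lipid phosphatase that removes the product of PI3K, was the second most abundant member per exon length in both groups, at 163 and 154 CPM per kilobase. It overlapped between groups at 1301, 1301 and 1109 against 1083, 1203 and 1230 CPM and did not pass (log2 fold change 0.08 ± 0.11 SE, adjusted p = 0.55). Ptpn6, which encodes SHP-1, was 1.34-fold higher in adult cells, with 299, 333 and 280 against 245, 204 and 230 CPM (adjusted p = 0.0066, and 0.065 without embryonic replicate 2). Ptpn11, which encodes SHP-2, averaged 45.0 ± 8.63 and 53.0 ± 1.48 CPM and did not pass (adjusted p = 0.16); without embryonic replicate 1 it passed at 0.013, higher in adult cells.

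The ubiquitin ligase genes were higher in adult cells and the DOK genes in embryonic cells. Cbl was at 15.4, 20.1 and 17.7 CPM in the embryonic and at 37.9, 34.3 and 39.8 CPM in the adult set (2.11-fold, adjusted p = 6.2e-05). Cblb, the more abundant of the pair, was 1.44-fold higher in adult cells, with 101, 107 and 130 against 81.7, 89.2 and 64.1 CPM (adjusted p = 0.0094). The call for Cblb was lost without the libraries numbered 3 of both groups (adjusted p = 0.070). Dok2, an adaptor that recruits Ras GTPase-activating protein (chromosome 14, 70766036 to 70778495), was at 74.4, 68.1 and 66.3 CPM in the embryonic and at 14.3, 11.2 and 9.39 CPM in the adult set, 5.97-fold higher in embryonic cells (adjusted p = 5.4e-07). Dok1 was lower in level and 1.97-fold higher in embryonic cells, at 8.36, 6.29 and 8.05 against 4.57, 3.02 and 3.92 CPM (adjusted p = 0.0045). Both groups were separate for each of these 4 genes.

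In the calcium entry genes, the store sensors were higher in adult cells and 2 of the 3 IP3 receptors in embryonic cells. Stim1, the main sensor of store calcium (chromosome 7, 102267824 to 102436848), was at 190, 170 and 164 CPM in the embryonic and at 278, 291 and 395 CPM in the adult set (1.84-fold, adjusted p = 0.00041). Stim2, a sensor that responds to smaller losses, was at 33.5, 34 and 33.6 CPM against 58.6, 65.7 and 61.7 CPM (1.84-fold, adjusted p = 3.0e-05). Because the fold was alike, Stim1 took 87.4% to 89.0% of the pair's level per exon length in embryonic and 86.3% to 90.1% in adult libraries. The channel genes differed less. Orai1, the main channel pore, was at 19.8, 14.8 and 19.9 CPM against 23.6, 22.5 and 21.9 CPM and did not pass (adjusted p = 0.083), although its groups did not overlap. Orai2, a channel subunit known to dampen the current, was 1.30-fold higher in embryonic cells, with 103, 128 and 95.4 against 88.2, 74.2 and 88.0 CPM (adjusted p = 0.025), a call lost in 3 of 15 other settings. Orai1 took 23.4% to 35.6% of the pair's level in embryonic and 39.7% to 44.5% in adult libraries.

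Itpr1 (chromosome 6, 108213096 to 108551109) was at 30.4, 44.7 and 27.5 CPM in the embryonic and at 11.5, 9.99 and 6.61 CPM in the adult set, 3.64-fold higher in embryonic cells (adjusted p = 0.00020). Itpr3 was at 104, 113 and 103 CPM against 46.1, 37.5 and 69.0 CPM, 2.10-fold higher in embryonic cells (adjusted p = 0.0016). Both genes encode channels that let calcium out of the endoplasmic reticulum, and both were clearly separate between groups. Itpr2, the remaining isoform, was at 89.5, 89.7 and 69.7 CPM against 91.4, 90.5 and 96.3 CPM and did not pass (adjusted p = 0.25). Itpr2 took 26.7% to 31.3% of the IP3 receptor level per exon length in embryonic and 44.8% to 56.4% in adult libraries, while Itpr3 took 59.7% to 64.7% in embryonic and 38.5% to 52.8% in adult libraries.

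At the end of the pathway, Nfatc1 was higher in adult cells and Nfatc2 and Nfatc3 in embryonic cells. Nfatc1 (chromosome 18, 80606205 to 80713071) was at 261, 246 and 238 CPM in the embryonic and at 590, 602 and 534 CPM in the adult set, 2.32-fold higher in adult cells (adjusted p = 3.6e-06). Nfatc2 (chromosome 2, 168476410 to 168601657) was at 20.1, 25.8 and 24.3 CPM against 4.40, 3.97 and 1.42 CPM, 7.12-fold higher in embryonic cells (adjusted p = 0.00024). Nfatc3 was at 137, 127 and 103 CPM against 56.1, 60.8 and 59.0 CPM, 2.09-fold higher in embryonic cells (adjusted p = 3.4e-05). All 3 encode calcineurin-dependent transcription factors. Nfatc1 was the leading gene in both groups, with 58.5% to 62.2% of their summed level per exon length in embryonic and 87.8% to 89.1% in adult libraries. Nfatc3 held 36.2% ± 2.55 in embryonic and 11.2% ± 0.776 in adult libraries (SD, n = 3).

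Shares were computed for 17 families among the members, and in 12 of them the shares of every gene did not overlap between groups. The 5 others were Lyn with Fyn and Fgr, Grb2 with Grap2, Vav1 with Vav3, Ptpn6 with Ptpn11, and Stim1 with Stim2. Families of other genes were not counted, so no like share stands beside the 12. For single genes, which is another measure, 70.0% of all tested genes did not overlap between groups. Whether the count of 12 is particular to this module was not tested. With 3 against 3 libraries an exact two-sided permutation test cannot give a p below 0.10, so no share can pass on its own, and shares follow from the genes' own values and add no separate evidence.

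The receptor chains themselves were read beside their signalling genes. Fcer1a, the chain that binds IgE and was the target of the adult gate, was at 4.39 to 7.32 CPM in the embryonic and 552 to 907 CPM in the adult set. Ms4a2, the beta chain that amplifies the signal, was 7.46-fold higher in adult cells, and Fcer1g, the gamma chain on which Syk docks, did not pass (log2 fold change 0.18, adjusted p = 0.14, and 0.044 without embryonic replicate 2).

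Other genes of the pathway were read from 9 lists of 149 symbols, of which 148 were found and 140 tested. Of these, 62 had the higher level in adult and 36 in embryonic cells (70.0% called, against the 63.0% of all tested genes), and their median log2 fold change was -0.30.

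The adaptor genes Clnk and Sla2 were far higher in embryonic cells. Clnk, an adaptor of the SLP-76 family, was at 6.25, 11.3 and 9.12 CPM against 0.121, 0.0692 and 0.0526 CPM, or 6, 3 and 2 adult counts. Sla2, an adaptor that dampens antigen receptor signals, was at 21.1, 19.7 and 23.5 CPM against 0.241, 0.185 and 0.105 CPM, 116-fold higher (adjusted p = 3.4e-08). Its relative Sla was at 424, 353 and 336 CPM against 3741, 3146 and 4415 CPM, 10.2-fold higher in adult cells (adjusted p = 1.1e-07), so the 2 adaptors moved in opposite directions. T cell and innate lymphoid markers summed to 16.4 to 21.7 CPM in the embryonic and 89.2 to 103 CPM in the adult set, with Il7r the largest part. In embryonic libraries Cd8a and Ncr1 were at 0, 3 of 10 markers averaged at least 1 CPM, and Cd3e averaged 0.00695 CPM. Cd3g averaged 2.49 CPM in embryonic against 0.205 CPM in adult libraries, and Trac 1 against 0.276 CPM. The listed T cell receptor complex genes thus did not share a direction. Cd3d (0.0448 against 0.174 CPM), Cd3e (0.00695 against 0.305 CPM) and Cd247 (0.179 against 0.450 CPM) had the higher mean in adult libraries, as the summed markers did. Cd3d and Cd3e fell under the filter on low counts, and Cd247 did not pass. The part of T cells and innate lymphoid cells in these results was not tested.

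In the list of other SRC, SYK, TEC, PKC and AKT family kinases, embryonic cells had the higher level of 8 of 16 tested genes and adult cells of 5 (the latter 3 without embryonic replicate 3 or without adult replicate 1). The share called was 81.25%, against 63.0% of all tested genes. Prkcq, protein kinase C theta, was 2.59-fold higher in embryonic cells, and Prkca and Akt2 were 1.87-fold and 1.70-fold higher in adult cells. Among 21 further adaptors and exchange factors, adult cells had the higher level of 11 and embryonic cells of 8 (90.5% called, against the same 63.0%). Vav2 was 9.44-fold higher in adult cells, with 54.9 ± 6.60 against 5.82 ± 1.15 CPM, in contrast to the level values of Vav1. Crk was 2.66-fold higher in adult cells, while Rac1, the GTPase that Vav proteins activate, was 2.08-fold higher in embryonic cells with means of 988 against 474 CPM.

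Of 8 other PI3K genes, 5 were higher in adult cells and 3 did not pass (62.5% called, against 63.0% of all tested genes). Pik3r6, which encodes p84, the second regulatory partner of the gamma subunit, was at 82.0, 109 and 109 CPM in the embryonic and at 496, 411 and 491 CPM in the adult set, 4.66-fold higher in adult cells (adjusted p = 7.1e-07). It and Pik3r5, both partners of the gamma subunit, were thus higher in adult cells, while Pik3cg was not. Pik3c3, the class III PI3K of endosomes and autophagy, was 3.09-fold higher in adult cells. Among 20 genes of inositol lipid and diacylglycerol turnover, 10 were higher in adult cells and 3 in embryonic cells (65% called, against 63.0%). Plcb2, the phospholipase C that answers G proteins, was at 275 ± 45.5 CPM in the embryonic and 40.6 ± 0.802 CPM in the adult set, 6.76-fold higher in embryonic cells (adjusted p = 1.3e-07). Inppl1, which encodes SHIP-2, was 1.75-fold higher in embryonic cells, and Pip4k2a and Dgke were 2.71-fold and 2.96-fold higher in adult cells.

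In the Ras and MAP kinase cascades 7 of 21 genes were higher in embryonic cells and 6 in adult cells (61.9% called, against 63.0% of all tested genes). Few differences were large, with 1 change of at least 2-fold (4.76%, against 38.0% of all tested genes). That gene, Braf, was 2.24-fold higher in adult cells. Mapk9 was 1.44-fold higher in adult cells, and Nras and Map2k4 were 1.73-fold and 1.58-fold higher in embryonic cells. Without adult replicate 2, 4 of these genes were higher in embryonic cells. Among 17 tested negative regulators, embryonic cells had more of 8 and adult cells more of 6 (82.4% called, against 63.0%). At least 2-fold changes were found for 10 of them (58.8%, against 38.0%). Rasal3, a Ras GTPase-activating protein, was 4.28-fold higher in embryonic cells, with 320 ± 18.3 against 74.9 ± 6.20 CPM, and Tollip was 4.21-fold higher in adult cells, with 1624 ± 119 against 386 ± 29.6 CPM.

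Of 17 tested genes for calcium pumps, store regulators and mitochondrial uptake, 10 were called higher in adult cells and 1 in embryonic cells (2 without embryonic replicate 2). The share called, 64.7%, was near the 63.0% of all tested genes, of which 31.7% were higher in adult cells. Atp2a3, a pump that refills the store, was 2.59-fold higher in adult cells, with 928 ± 46.3 against 358 ± 27.9 CPM. Saraf, which turns store-operated entry off, was 1.99-fold higher, close to the 1.84-fold of Stim1 and Stim2. Calm3, a calmodulin gene, was 2.39-fold higher in embryonic cells. Among 17 calcineurin and NFAT regulators, 7 were higher in adult cells and 1 in embryonic cells (4 in adult without embryonic replicate 2, and 2 in embryonic without adult replicate 3). The share called there was 47.1%, below the 63.0% of all tested genes. Rcan1, a calcineurin inhibitor that is itself an NFAT target, was at 37.3, 33.4 and 28.9 CPM in the embryonic and at 441, 346 and 394 CPM in the adult set, 11.9-fold higher in adult cells (adjusted p = 4.1e-08). Ppp3cc, a calcineurin catalytic subunit, was 7.87-fold higher in adult cells, with 63.2 ± 7.27 against 8.02 ± 0.535 CPM, and Homer2, a scaffold that competes with calcineurin for NFAT, was 1.77-fold higher in embryonic cells.

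**Figure D4:**
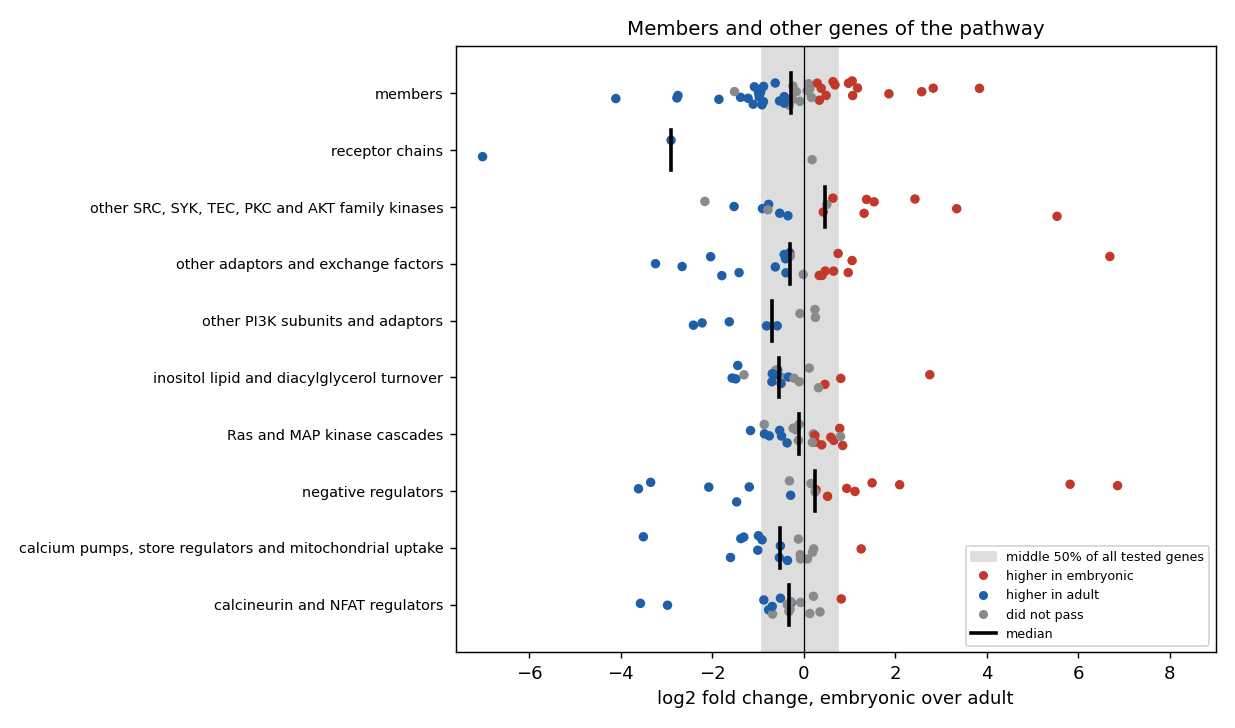
Fitted log2 fold change (x axis, embryonic over adult) of the members (Fgr left out of the points) and of the tested genes in 9 other pathway lists, with called genes in red or blue, others in grey, black bars for the medians and a grey band for the middle 50% of all tested genes. The medians of most lists lie inside the band; that of the 3 receptor chains, at -2.90, lies outside it.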

How the data were processed

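RNA was measured in 6 libraries, 3 a group. Per the labels' protocols, cDNA was made from 10 ng of total RNA with a SMART-Seq v4 kit, 10 PCR cycles and Nextera XT tagmentation with 12 further cycles, a procedure that does not mark strand. The deposited values are raw counts for each gene. The authors made them, per the file headers, with featureCounts 1.5.0-p1 over GENCODE M9 exons, without strand and ignoring reads marked as duplicates; reads shared by genes were not counted, which lowers genes with overlapping exons. STAR, GRCm38 (mm10) and edgeR are named in the submitters' processing notes, with versions not given in the sources used here. Intervals and floors cover counting error only.

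Symbols were matched by gene ID for 47224 of 47643 genes. All 6 columns were used. The members and lists were chosen with earlier results of these data known. Counts were fitted with edgeR 4.0.16 in R 4.3.3 (TMM, filterByExpr with a minimum count of 10, robust quasi-likelihood, group as the term, Benjamini-Hochberg adjustment over 15111 genes, threshold 0.05). The standard error is the log2 fold change divided by the root of F. Every member was described; members past the threshold and at least 2-fold apart, the most abundant of each role group and those leading a family are given by library; in each other list the 2 smallest adjusted p-values per direction were named, with Fcer1a, Ms4a2 and Fcer1g. CPM per kilobase used the deposited exon lengths. The 1 listed symbol not found was Stimate. On a simulated draw with 200 changed genes, far fewer than were called here, the fit's share of false calls exceeded the threshold. It also missed most 1.5-fold changes. Those rates may not hold for these data, and calls of small folds are taken as less certain. Alternatives were RLE and upper quartile scaling, 2 other filters, DESeq2 1.42.0, limma-voom (limma 3.58.1), a non-robust fit, a block by replicate number, left-out libraries and stricter thresholds. Same-numbered libraries of the groups did not deviate together (correlations of deviations -0.12, -0.08 and -0.13), so the block is an alternative. A gene that this rule would name is not reported here. A planned comparison of protein sequences was not run.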

Additional observations from a re-analysis of the deposited data

How the results depend on the processing

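Over 15 other settings of scaling, filter, tool, block and libraries, 29 of the 35 called members stayed called in the same direction and 0 reversed; Sos1, Plcg2, Pik3cg, Ptpn6, Cblb and Orai2 lost the call in at least 1 setting. Of the 11 members not called, Vav3, Prkcb and Ptpn11 passed in at least 1. Members higher in embryonic cells numbered 12 to 15 and those higher in adult cells 20 to 22 when 1 library was left out, and 14 and 21 without the libraries numbered 3 of both groups. With the replicate block they numbered 12 and 21; the block ended the calls of Plcg2 and Orai2 and changed no other member's call. With at least a 2-fold change required, which by construction leaves fewer genes, the counts in embryonic and adult cells were 7 and 9 for members, 15 and 27 for the other pathway genes, and 2601 and 3143 for all tested genes. Scaling barely moved the centre: over all genes the log2 fold change had a median of -0.02 under TMM or RLE and -0.04 under upper quartile factors, against -0.12 where genes with at least 1 count were kept. Depth limits Fgr, Vav3 and Rasgrp1, each under 4 CPM in every library. It also limits the fold of Pik3r5, which had 32, 20 and 35 counts in the embryonic libraries. Without length correction, family shares change in level by construction.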
